A study of Mus musculus with 19 samples.

Results

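The 6 genes described here are the neurotrophins Bdnf and Ntf3 and the receptors Ntrk2, Ntrk3, Ngfr and Sort1, chosen by name, with each bead-array probe whose platform gene symbol is 1 of them. They were 6 of 16593 genes named on the array, and 5 of the 6 had a probe. These 5 held 15 probes, namely 3 for Bdnf, 3 for Ntrk2, 4 for Ntrk3, 1 for Ngfr and 4 for Sort1. No probe carried the symbol Ntf3, which encodes neurotrophin-3, and it was not analysed here.

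Neurotrophins are secreted growth factors that are made as precursors and cleaved to the mature form. Mature BDNF acts through TrkB, the tyrosine kinase receptor encoded by Ntrk2, and neurotrophin-3 mainly through TrkC, encoded by Ntrk3. The precursors bind p75, encoded by Ngfr, together with sortilin, encoded by Sort1, which also carries proBDNF to the regulated secretory route. In cortex Bdnf is made by excitatory neurons in response to activity, TrkB also exists in a truncated form without the kinase that is abundant in astrocytes, and p75 is known mainly from basal forebrain cholinergic neurons that send axons to cortex.

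RNA of prefrontal cortex from female mice aged 20 months was measured on 19 Illumina bead arrays, 1 sample an array. The genotypes were 3xTgAD/Polb+/- (n = 4), 3xTgAD (n = 6), Polb+/- (n = 4) and wild type (n = 5). The labels give the strain C57BL/6 for all 4. 3xTgAD mice carry the alleles APPswe, PS1M146V and tauP301L, a model of Alzheimer disease in which, in the published line, the human APP and tau transgenes are driven by a Thy1 regulatory element and the presenilin change sits in the mouse gene. Polb+/- mice have 1 intact copy of the gene of DNA polymerase beta, which fills gaps during base excision repair, and 3xTgAD/Polb+/- mice came from crossing both lines, so that they carry all 3 Alzheimer alleles and the Polb deletion. The labels number the replicates and do not state that each array is another mouse, so p-values measure the spread between these arrays, which may be technical in part.

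The arrays were not alike in ways the genotypes do not account for. The source labels write the age as "20- month" on 11 arrays and as "20 month" on 8. The first held 13876 to 14396 detected probes of 25697 and the second 13205 to 13562, without overlap. Both spellings occur in each genotype (2 and 2 in 3xTgAD/Polb+/-, 3 and 3 in 3xTgAD, 3 and 1 in Polb+/-, 3 and 2 in wild type). What the spelling stands for was not stated. Polb, the targeted gene, was at 6.53 to 7.21 in 3xTgAD/Polb+/-, 6.63 to 7.79 in 3xTgAD, 6.95 to 7.26 in Polb+/- and 7.55 to 7.97 in wild type (log2 intensity), and 3xTgAD replicates 4 and 6, at 6.89 and 6.63, lay among the heterozygous arrays. Its difference of 3xTgAD/Polb+/- and of Polb+/- against wild type was -0.74 and -0.63 and passed in neither (limma adjusted p = 0.181 and 1.0). Markers of cortical projection neurons were present, 11 of the 12 with a probe being kept, at a mean log2 level of 8.73, 8.83, 8.73 and 8.77 in the genotypes in the same order. Neurod6, a gene of cortical excitatory neurons, was detected on 0 of 19 arrays. Markers of striatal projection neurons, a cell type outside cortex, averaged 8.14 ± 0.43 in 3xTgAD/Polb+/- (range 7.54 to 8.46), 8.47 ± 1.06 in 3xTgAD (7.71 to 10.06), 10.04 ± 0.38 in Polb+/- (9.56 to 10.37) and 8.78 ± 1.13 in wild type (7.36 to 9.94) over 10 genes. Among these 10, Drd1 and Ppp1r1b were detected on 19 of 19 arrays, and of the 11 with a probe Adcy5 was detected on 0. Within 3xTgAD, replicates 4 and 6 held the high striatal means, 10.06 and 9.61, and the rest lay at 7.71 to 7.88. In tissue RNA, fewer cells of a type and less RNA per cell cannot be told apart.

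Levels are log2 intensities after background correction and quantile normalisation, and a probe was called detected on an array at a detection p-value under 0.05. Probes detected on at least 4 arrays were tested, 14942 in all, and 13 of the 15 probes described here were among them. The other 2 were Bdnf ILMN_1246842, detected on 0 of 19 arrays, and Ntrk2 ILMN_2705460, detected on 2 of 19. Ntrk2 ILMN_2705460 is the array's only probe assigned to NM_008745, the transcript of truncated TrkB, and it was at 4.55 to 5.31, with 1 detected array in 3xTgAD/Polb+/- (replicate 2) and 1 in wild type (replicate 3). Of the 13 tested, 11 were detected on 19 of 19 arrays, Bdnf ILMN_1214228 on 17 and Ntrk3 ILMN_2632337 on 14. Brightness differs between probes for reasons other than RNA amount, so no gene's level is set against another's here.

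Bdnf was the gene of the 5 measured with the largest fitted differences. The brighter probe had lower means with the Alzheimer alleles on both Polb backgrounds, the dimmer probe mainly on the Polb+/- background, and neither passed the adjusted threshold in any of the 8 comparisons. ILMN_3105417, assigned to NM_001048141, was at 8.26, 8.93, 8.87 and 8.98 on the 3xTgAD/Polb+/- arrays. It was at 8.50 at the lowest, 8.77 at the median and 8.92 at the highest of the 6 3xTgAD arrays. It was at 8.94, 9.17, 9.17 and 9.48 on the Polb+/- arrays, and at 8.74, 9.09, 8.99, 9.37 and 9.52 on the wild type arrays. The highest 3xTgAD array (8.918) was only just below the lowest Polb+/- array (8.944), and no share over all probes was taken for this pair. Each 3xTgAD array was below 4 of 5 wild type arrays, and 1 3xTgAD/Polb+/- array (8.26) lay apart below all others. In order of the mean, 3xTgAD (8.75 ± 0.15) and 3xTgAD/Polb+/- (8.76 ± 0.34) were lowest and did not differ beyond their spread, nor did wild type (9.14 ± 0.31) and Polb+/- (9.19 ± 0.22) above them (SD).

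The effect of the Alzheimer alleles on ILMN_3105417, averaged over both Polb backgrounds, was -0.41 ± 0.12 (SE, 95% interval -0.65 to -0.17), a ratio of 0.752 with over without the alleles (limma unadjusted p under 0.05, adjusted p = 0.113). By that unadjusted measure 15.4% of all tested probes had p under 0.05, and 0.522% passed the adjusted threshold. The 2 differences it averages were -0.39 ± 0.15 for 3xTgAD against wild type (limma adjusted p = 0.745) and -0.43 ± 0.18 for 3xTgAD/Polb+/- against Polb+/- (adjusted p = 0.353), which was -0.26 without 3xTgAD/Polb+/- replicate 1. 3xTgAD/Polb+/- differed from wild type by -0.38 ± 0.17 (limma unadjusted p under 0.05, adjusted p = 0.352), and without its replicate 1 by -0.21. 3xTgAD/Polb+/- differed from 3xTgAD by 0.014 ± 0.16, and Polb+/- from wild type by 0.05 ± 0.17. Within the "20- month" arrays the effect of the alleles was -0.50 (adjusted p = 0.0365, where 8.51% of probes passed), and within the "20 month" arrays -0.38 (adjusted p = 0.688). The difference of 3xTgAD/Polb+/- from wild type was -0.70 within "20- month" (adjusted p = 0.0365, where 13.3% of probes passed) and 0.014 within "20 month" (adjusted p = 0.993), so its direction rests on the first set.

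The dimmer Bdnf probe, ILMN_1214228, assigned to NM_007540, was at 5.06, 5.47, 5.76 and 5.89 in 3xTgAD/Polb+/-. In 3xTgAD its lowest, median and highest values were 5.45, 5.72 and 6.03. It was at 6.04, 6.12, 6.20 and 6.63 in Polb+/-, and at 5.07, 5.69, 5.70, 6.17 and 6.08 in wild type. The values of 5.06 and 5.07 are from arrays on which the probe was not detected. The lowest Polb+/- array (6.041) lay only just above the highest 3xTgAD array (6.034), and no share over all probes was taken for this pair. In wild type, 2 arrays lay in the Polb+/- range. Against Polb+/- the 3xTgAD/Polb+/- arrays did not overlap, which held for 5.01% of all tested probes, and the difference was -0.71 ± 0.22, a ratio of 0.613 (limma unadjusted p under 0.05, adjusted p = 0.199). Polb+/- differed from wild type by 0.51 ± 0.20 (limma unadjusted p under 0.05, adjusted p = 1.0), by 0.14 within "20- month" and by 1.26 within "20 month", where Polb+/- has 1 array. 3xTgAD differed from wild type by -0.03 ± 0.18 (limma adjusted p = 0.990). The averaged effect of the Alzheimer alleles was thus made up mostly of the difference on the Polb+/- background and was -0.37 ± 0.14 (limma unadjusted p under 0.05, adjusted p = 0.222), and the interaction of the alleles with Polb was -0.67 ± 0.28 (limma unadjusted p under 0.05, adjusted p = 1.0, 3.13% of probes under 0.05 unadjusted). Within "20- month" the difference of 3xTgAD/Polb+/- from Polb+/- was -0.86 (adjusted p = 0.00758, where 10.6% of probes passed), and within "20 month" -0.81 (adjusted p = 0.686).

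**Figure D1:**
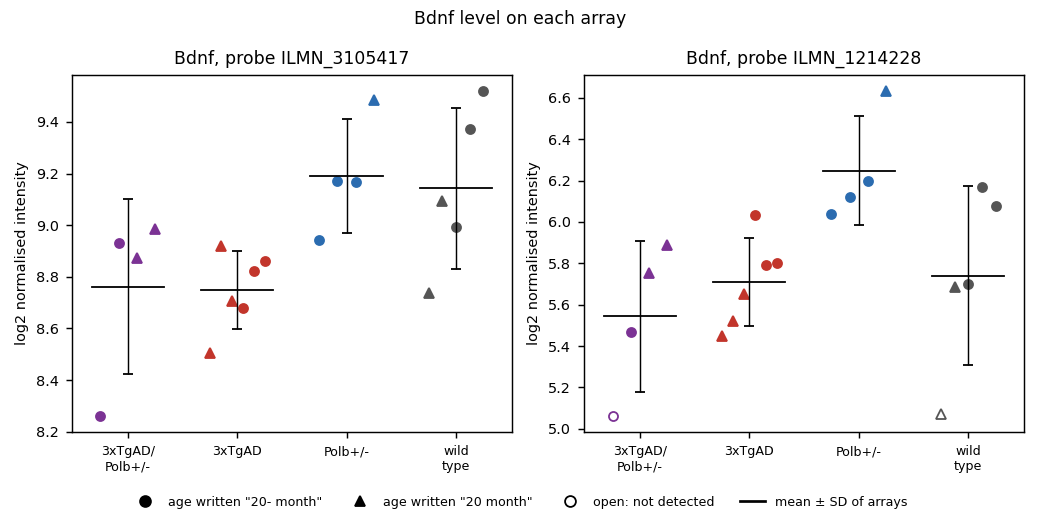
Log2 normalised intensity of the 2 tested Bdnf probes, 1 point an array, by genotype from 3xTgAD/Polb+/- at the left to wild type at the right, with bars for the mean and SD of the arrays. Circles and triangles mark the 2 spellings of the age and open symbols arrays where the probe was not detected; the 6 3xTgAD arrays of ILMN_3105417 sit between 8.50 and 8.92, and the 4 Polb+/- arrays between 8.94 and 9.48.

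Bdnf varied across arrays with the markers of some other cell types and not of others. The 2 Bdnf probes correlated at r = 0.774 over the 19 arrays. Against the mean of the 10 striatal markers r was 0.465 for ILMN_3105417 and 0.699 for ILMN_1214228, against 6 basal forebrain cholinergic markers 0.491 and 0.739, against 4 choroid plexus markers 0.491 and 0.716, and against 5 blood genes 0.476 and 0.607. Against 11 cortical projection neuron markers the values were -0.0044 and -0.189. Against fibroblast markers they were -0.126 and -0.414, against astrocyte markers -0.252 and -0.198, against oligodendrocyte markers -0.112 and -0.0046, against endothelial markers -0.0511 and -0.0142, and against microglia markers 0.106 and 0.287. These correlations are descriptions over arrays that share tissue, genotype and spelling. The cholinergic markers were detected on 6 (Gbx2) to 17 (Lhx8) of 19 arrays and the choroid plexus markers on 4 (Kl) to 17 (Clic6). The blood genes were detected on 4 (Ppbp) to 19 (Alas2), so background may limit these 3 means. With the striatal mean as a covariate, the averaged effect of the Alzheimer alleles was -0.34 ± 0.14 on ILMN_3105417 (limma adjusted p = 0.486) and -0.17 ± 0.16 on ILMN_1214228 (adjusted p = 0.747). With it the difference of 3xTgAD/Polb+/- from Polb+/- was -0.31 ± 0.22 on the first probe and -0.36 ± 0.25 on the second, which was -0.71 without it. On ILMN_1214228 Polb+/- and wild type then differed by 0.28 ± 0.21. The median log2 difference of the striatal markers in 3xTgAD/Polb+/- against Polb+/- was -2.06, all 10 in that direction with unadjusted p under 0.05 and none passing the adjusted threshold. The striatal means of these 2 genotypes did not overlap (7.54 to 8.46 and 9.56 to 10.37). Genotype and striatal level thus cannot be told apart in this comparison by the covariate, and the part of these markers in the Bdnf values was not tested.

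**Figure D2:**
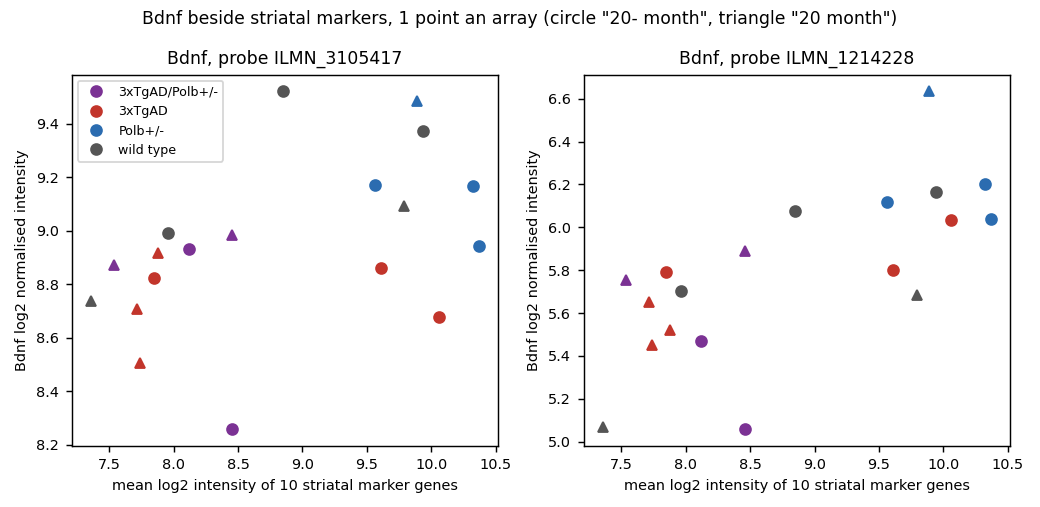
Log2 intensity of the 2 Bdnf probes (vertical) against the mean log2 intensity of 10 striatal marker genes (horizontal), 1 point an array, coloured by genotype and shaped by the spelling of the age. The 4 Polb+/- arrays lie at 9.56 to 10.37 on the horizontal axis and the 4 3xTgAD/Polb+/- arrays at 7.54 to 8.46, and over all 19 arrays r is 0.465 at the left and 0.699 at the right.

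The genes whose levels followed Bdnf ILMN_3105417 most closely, by Pearson r over 19 arrays after the mean of each spelling was subtracted, were Chodl (0.856), Golm2 (0.822) and Deptor (0.814). Without the 2 arrays farthest from the median these were 0.716, 0.733 and 0.779, and over all 19 arrays with the spelling means left in 0.749, 0.731 and 0.788.

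Bdnf is transcribed from several alternative first exons, each with its own promoter, and 1 of them is known in rat for a variant cAMP response element through which activity induces it. The RefSeq promoter table (GRCm38.p6) lists 7 Bdnf starts, 2 for Ntf3, 1 each for Ntrk2 and Ngfr, and was without an entry for Ntrk3 and Sort1. Each window of 300 bases, 250 before the start and 50 from it, was searched on both strands for the response element TGACGTCA, its variant TCACGTCA and the E-box CACGTG. Among 32851 promoters of this length these occurred in 1.79%, 0.441% and 7.15%. TCACGTCA occurred in 1 of the 7 Bdnf windows, with its first base at position -38 from the start, and none of the 3 motifs in the other 6. It is shown because Bdnf carries the differences above, beside the window of the most upstream of the 7 starts. The match is in capitals, and the array's probes are not tied to any of these starts by the files.
Bdnf promoter 3, chr2:109692186-109692485, plus strand: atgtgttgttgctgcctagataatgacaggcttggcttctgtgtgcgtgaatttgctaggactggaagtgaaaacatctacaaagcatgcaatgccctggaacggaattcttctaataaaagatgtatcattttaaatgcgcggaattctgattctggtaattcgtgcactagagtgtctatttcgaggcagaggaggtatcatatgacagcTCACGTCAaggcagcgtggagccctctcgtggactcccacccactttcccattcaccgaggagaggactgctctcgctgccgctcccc
Bdnf promoter 1, chr2:109674450-109674749, plus strand: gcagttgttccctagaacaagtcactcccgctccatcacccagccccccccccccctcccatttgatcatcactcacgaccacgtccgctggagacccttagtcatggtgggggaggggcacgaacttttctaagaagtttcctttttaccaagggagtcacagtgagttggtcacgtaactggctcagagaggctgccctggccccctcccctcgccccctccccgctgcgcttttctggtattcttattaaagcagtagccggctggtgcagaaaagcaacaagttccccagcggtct

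Ntrk2, the BDNF receptor gene, was detected throughout by both probes assigned to NM_001025074, the transcript of TrkB with the kinase. ILMN_3138904 was at 11.52, 11.56, 11.47 and 11.75 in 3xTgAD/Polb+/-. In 3xTgAD its lowest, median and highest values were 11.35, 11.50 and 11.90. It was at 11.47, 11.52, 11.43 and 11.66 in Polb+/-, and at 11.42, 11.47, 11.29, 11.45 and 11.35 in wild type. Each 3xTgAD/Polb+/- array lay above each wild type array, though narrowly, which held for 2.72% of tested probes. The difference was 0.18 ± 0.11 and did not pass (limma adjusted p = 0.511, 95% interval -0.05 to 0.41). The other genotypes overlapped with wild type. The second probe, ILMN_3061460, had means of 10.01 ± 0.17 in 3xTgAD/Polb+/-, 9.90 ± 0.29 in 3xTgAD, 10.09 ± 0.08 in Polb+/- and 10.05 ± 0.34 in wild type (SD), and its 5 differences between genotype pairs lay between -0.16 and 0.11. The averaged effect of the Alzheimer alleles was 0.11 ± 0.08 on the first probe and -0.12 ± 0.12 on the second, with 95% intervals of -0.05 to 0.26 and -0.36 to 0.12. The 2 probes had r = -0.361 over the 19 arrays, and -0.0112 once the mean of each spelling was subtracted. The 3 genes closest to ILMN_3138904 after subtraction of the spelling means were Lrpprc (r = 0.891), Ahcyl2 (0.863) and Ppp2ca (0.853), and with those means left in r was 0.624, 0.196 and 0.788.

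Ntrk3, the neurotrophin-3 receptor gene, was measured by 2 probes assigned to NM_008746, the transcript of TrkC with the kinase, and 2 assigned to NM_182809, that of a TrkC without it. ILMN_2675199, of the first transcript, was at 9.71, 9.50, 9.60 and 9.80 in 3xTgAD/Polb+/-. In 3xTgAD its lowest, median and highest values were 9.42, 9.56 and 9.93. It was at 9.35, 9.36, 9.23 and 9.50 in Polb+/-, and at 9.57, 9.45, 9.47, 9.48 and 9.59 in wild type. Polb+/- held the 3 lowest arrays, and its replicate 4 lay among the other genotypes. 3xTgAD/Polb+/- differed from Polb+/- by 0.29 ± 0.11, a ratio of 1.22 (limma unadjusted p under 0.05, adjusted p = 0.321, 11.6% of probes under 0.05 unadjusted). The averaged effect of the Alzheimer alleles was 0.19 ± 0.07 (limma unadjusted p under 0.05, adjusted p = 0.222), 0.13 within "20- month" and 0.21 within "20 month". With the striatal mean as a covariate over all 19 arrays, the difference of 3xTgAD/Polb+/- from Polb+/- was 0.17 ± 0.14. The averaged effect in that fit was 0.12 ± 0.09. This probe's r with the striatal mean was -0.658, and as for Bdnf the covariate cannot part genotype from striatal level between those 2 genotypes. In order of the mean, Polb+/- (9.36 ± 0.11) was lowest, then wild type (9.51 ± 0.06), 3xTgAD (9.61 ± 0.18) and 3xTgAD/Polb+/- (9.65 ± 0.13), and among neighbours in this order only Polb+/- and wild type were further apart than the larger of their SDs.

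The other 3 Ntrk3 probes had no comparison with unadjusted p under 0.05. ILMN_1253641, also of NM_008746, averaged 8.95 ± 0.09 in 3xTgAD/Polb+/-, 8.90 ± 0.18 in 3xTgAD, 8.74 ± 0.08 in Polb+/- and 8.94 ± 0.18 in wild type (SD), and followed ILMN_2675199 at r = 0.609. ILMN_2599036 of NM_182809 averaged 7.66 ± 0.37, 7.39 ± 0.34, 7.52 ± 0.24 and 7.46 ± 0.35 in the genotypes in the same order, and ILMN_2632337 5.69 ± 0.21, 5.46 ± 0.23, 5.41 ± 0.29 and 5.47 ± 0.33. These 2 followed each other at r = 0.748. Between the transcripts the 4 pairs of probes had r of -0.475 to -0.022. Once the mean of each spelling was subtracted, the pairs within a transcript had r of 0.523 (NM_008746) and 0.410 (NM_182809) and those between transcripts -0.330 to 0.603, the highest for ILMN_2632337 with ILMN_2675199, so the probes no longer parted by transcript. ILMN_2632337 was undetected on 2 of 6 3xTgAD arrays, 1 of 4 Polb+/- arrays and 2 of 5 wild type arrays, all 5 of them "20 month", and on none of the 3xTgAD/Polb+/- arrays. The 3 genes closest to ILMN_2675199 after subtraction of the spelling means were Dlgap4 (r = 0.848), Smg1 (0.848) and Camk2a (0.844), and with those means left in r was 0.802, 0.426 and 0.700.

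Ngfr, which encodes p75, was dim but detected on 19 of 19 arrays. Its probe ILMN_2851288 was at 5.85, 5.73, 5.82 and 5.71 in 3xTgAD/Polb+/-. In 3xTgAD its lowest, median and highest values were 6.01, 6.05 and 6.41. It was at 6.16, 6.19, 5.66 and 6.18 in Polb+/-, and at 6.04, 6.29, 5.60, 6.01 and 6.13 in wild type. Each 3xTgAD/Polb+/- array lay below each 3xTgAD array, as was so in either direction for 0.937% of tested probes, while 1 Polb+/- array and 1 wild type array lay lower still. 3xTgAD/Polb+/- differed from 3xTgAD by -0.34 ± 0.13, a ratio of 0.791 (limma unadjusted p under 0.05, adjusted p = 0.503, 8.87% of probes under 0.05 unadjusted), -0.29 within "20- month" and -0.39 within "20 month". In order of the mean, 3xTgAD/Polb+/- (5.78 ± 0.07) was lowest, and wild type (6.01 ± 0.25), Polb+/- (6.05 ± 0.26) and 3xTgAD (6.12 ± 0.16) did not differ beyond their spread (SD). The averaged effect of Polb heterozygosity was -0.15 ± 0.10 (limma adjusted p = 0.702), the smallest p of the 13 probes in that comparison, in which none had p under 0.05 unadjusted, and it was -0.09 without Polb+/- replicate 3. Background may limit the 6 basal forebrain cholinergic markers, as given above. They averaged 5.05 ± 0.11 in 3xTgAD/Polb+/-, 5.38 ± 0.68 in 3xTgAD, 6.52 ± 0.28 in Polb+/- and 5.61 ± 0.58 in wild type, and Ngfr's r with them was 0.281. Its highest r over the 10 marker lists was 0.456 with microglia markers, then 0.425 with oligodendrocyte markers. Once the mean of each spelling was subtracted the order changed. The r was then 0.479 with oligodendrocyte, 0.434 with cholinergic, 0.419 with microglia and 0.417 with choroid plexus markers. In 3xTgAD/Polb+/- against 3xTgAD the oligodendrocyte markers were 8 lower and 1 higher of 9, with a median of -0.23 and 3 under an unadjusted p of 0.05, and the microglia markers 6 lower and 4 higher of 10 with a median of -0.12. The part of these cell types in the Ngfr difference was not tested. The 3 genes closest to Ngfr after subtraction of the spelling means were Ubl4a (r = 0.754), Gadd45b (0.747) and Ncs1 (0.730), and with those means left in r was 0.752, 0.471 and 0.738.

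Sort1, which encodes sortilin, had 4 probes assigned to the same transcript, NM_019972, of which 2 were bright and 2 dim. Dim probe ILMN_1232295 was at 7.52, 7.56, 7.17 and 6.82 in 3xTgAD/Polb+/-. In 3xTgAD its lowest, median and highest values were 7.24, 7.39 and 7.79. It was at 6.92, 7.04, 7.25 and 7.22 in Polb+/-, and at 7.31, 7.23, 7.01, 6.98 and 7.13 in wild type. The 3xTgAD arrays were at the upper end and overlapped with Polb+/- and wild type. 3xTgAD differed from wild type by 0.32 ± 0.13, a ratio of 1.25 (limma unadjusted p under 0.05, adjusted p = 0.794, 5.81% of probes under 0.05 unadjusted), 0.30 within each spelling. The averaged effect of the Alzheimer alleles was 0.24 ± 0.10 (limma unadjusted p under 0.05, adjusted p = 0.256). It was 0.38 within "20- month" (limma adjusted p = 0.0189, where 8.51% of probes passed) and 0.04 within "20 month", where Polb+/- has 1 array. The 2 "20- month" arrays of 3xTgAD/Polb+/- were its high ones and the 2 "20 month" arrays its low ones. With the striatal mean as a covariate the averaged effect was 0.16 ± 0.12.

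The other 3 Sort1 probes had no comparison with unadjusted p under 0.05. Dim probe ILMN_2685772 followed ILMN_1232295 at r = 0.737 and averaged 7.58 ± 0.36 in 3xTgAD/Polb+/-, 7.72 ± 0.16 in 3xTgAD, 7.51 ± 0.14 in Polb+/- and 7.56 ± 0.11 in wild type (SD). The bright probe ILMN_3005873 averaged 13.53 ± 0.22, 13.52 ± 0.17, 13.56 ± 0.17 and 13.57 ± 0.20 in the same order, and ILMN_1219717 13.11 ± 0.39, 13.06 ± 0.21, 13.10 ± 0.22 and 13.08 ± 0.17. For these bright probes the averaged effect of the Alzheimer alleles was -0.04 ± 0.09 and -0.01 ± 0.11, with 95% intervals of -0.23 to 0.15 and -0.25 to 0.23. The bright probes followed each other at r = 0.920, and the 4 pairs of a bright with a dim probe had r of -0.135 to 0.276. Once the mean of each spelling was subtracted, the bright pair had r = 0.530, the dim pair 0.787 and the bright with the dim probes 0.0456 to 0.322. The 3 genes closest to ILMN_3005873 after subtraction of the spelling means were Nectin3 (r = 0.865), Slit2 (0.798) and 1700102P08Rik (0.794), and with those means left in r was 0.840, 0.718 and 0.808.

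**Figure D3:**
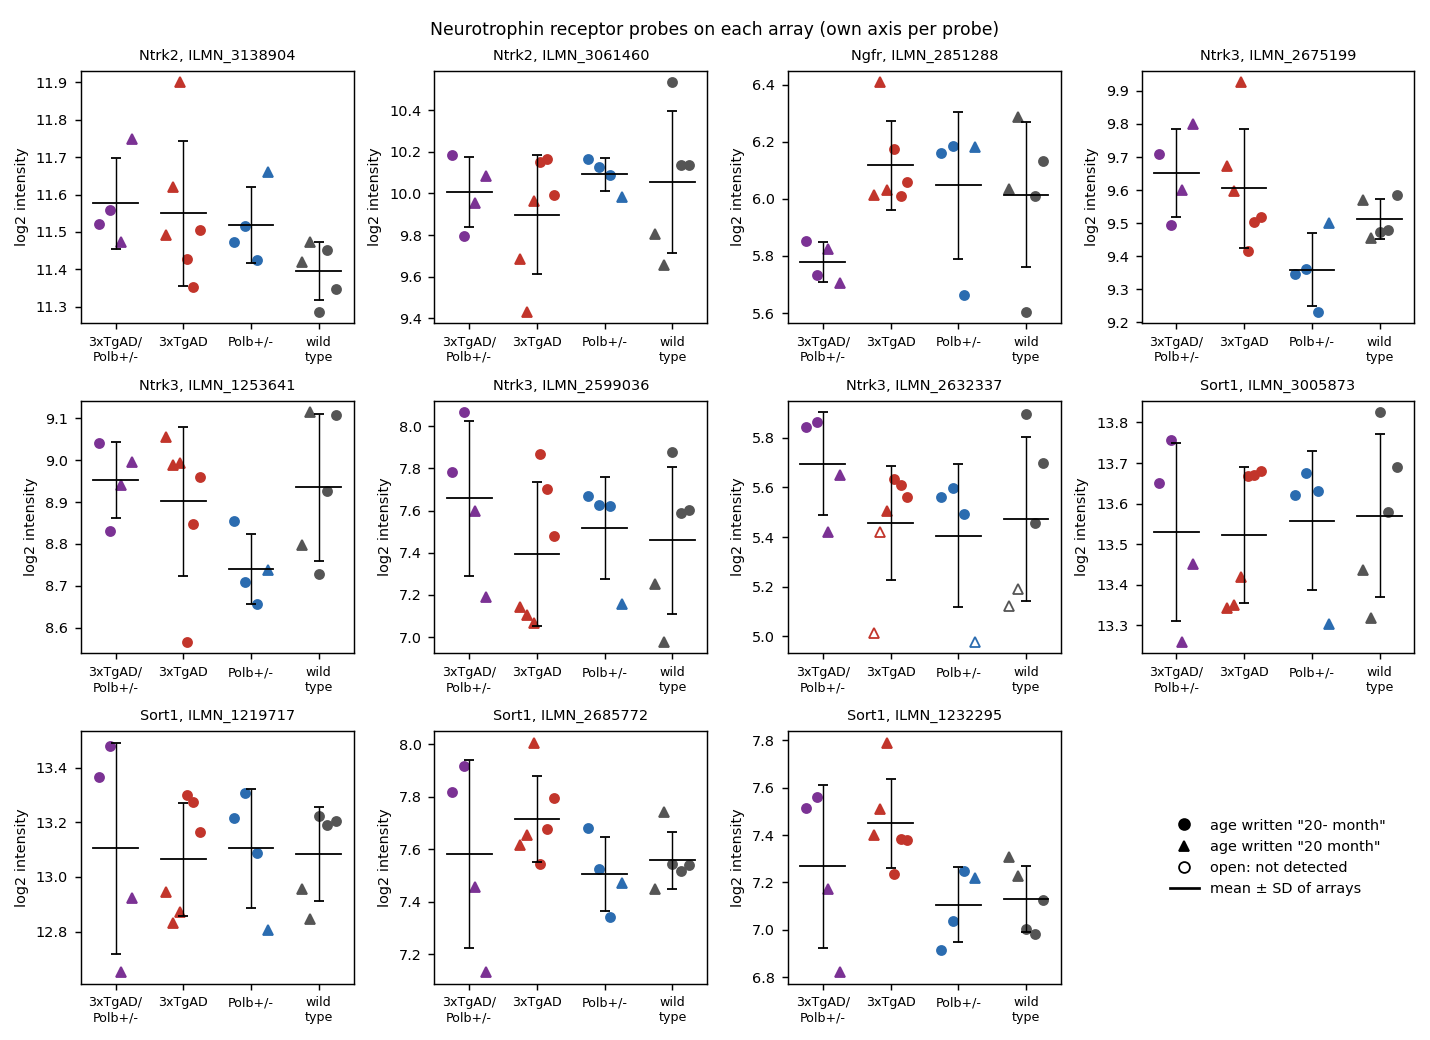
Log2 normalised intensity of the 11 tested receptor probes, 1 panel a probe with its own vertical axis, 1 point an array, by genotype from 3xTgAD/Polb+/- at the left to wild type at the right, with the mean and SD. Circles ("20- month") lie above triangles ("20 month") without overlap in the panels of Sort1 ILMN_3005873 and ILMN_1219717. No share over all probes was taken for this separation. The 4 3xTgAD/Polb+/- arrays of Ngfr lie at 5.71 to 5.85.

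Over all comparisons, 0 of the 13 probes passed an adjusted p of 0.05 by limma. The share of all 14942 tested probes that passed was 0.00669% for 3xTgAD/Polb+/- against wild type, 0% for 3xTgAD against wild type, 0% for Polb+/- against wild type, 0% for 3xTgAD/Polb+/- against 3xTgAD, 0.0134% for 3xTgAD/Polb+/- against Polb+/-, 0.522% for the averaged Alzheimer alleles, 0.00669% for averaged Polb heterozygosity and 0% for the interaction. At unadjusted p under 0.05 there was 1 of 13 in 3xTgAD/Polb+/- against wild type, lower, where 12.7% of all probes were under 0.05 (5.57% higher, 7.09% lower). There were 2 in 3xTgAD against wild type, 1 in each direction (5.81% of all, 2.95% higher and 2.86% lower), and 1 in Polb+/- against wild type, higher (3.21% of all, 1.68% higher and 1.53% lower). There was 1 in 3xTgAD/Polb+/- against 3xTgAD, lower (8.87% of all, 4.75% higher and 4.12% lower), and 3 in 3xTgAD/Polb+/- against Polb+/-, 1 higher and 2 lower (11.6% of all, 4.91% higher and 6.65% lower). For the averaged Alzheimer alleles there were 4 (15.4% of all, 7.04% higher and 8.38% lower), for averaged Polb heterozygosity 0 (7.97% of all, 4.23% higher and 3.74% lower) and for the interaction 1, lower (3.13% of all, 1.59% higher and 1.53% lower). The 4 were the 2 Bdnf probes, lower, and Ntrk3 ILMN_2675199 and Sort1 ILMN_1232295, higher with the alleles. The median difference of the 13 probes with the alleles was 0.04, against 0.02 over all tested probes, with 7 higher and 6 lower.

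**Figure D4:**
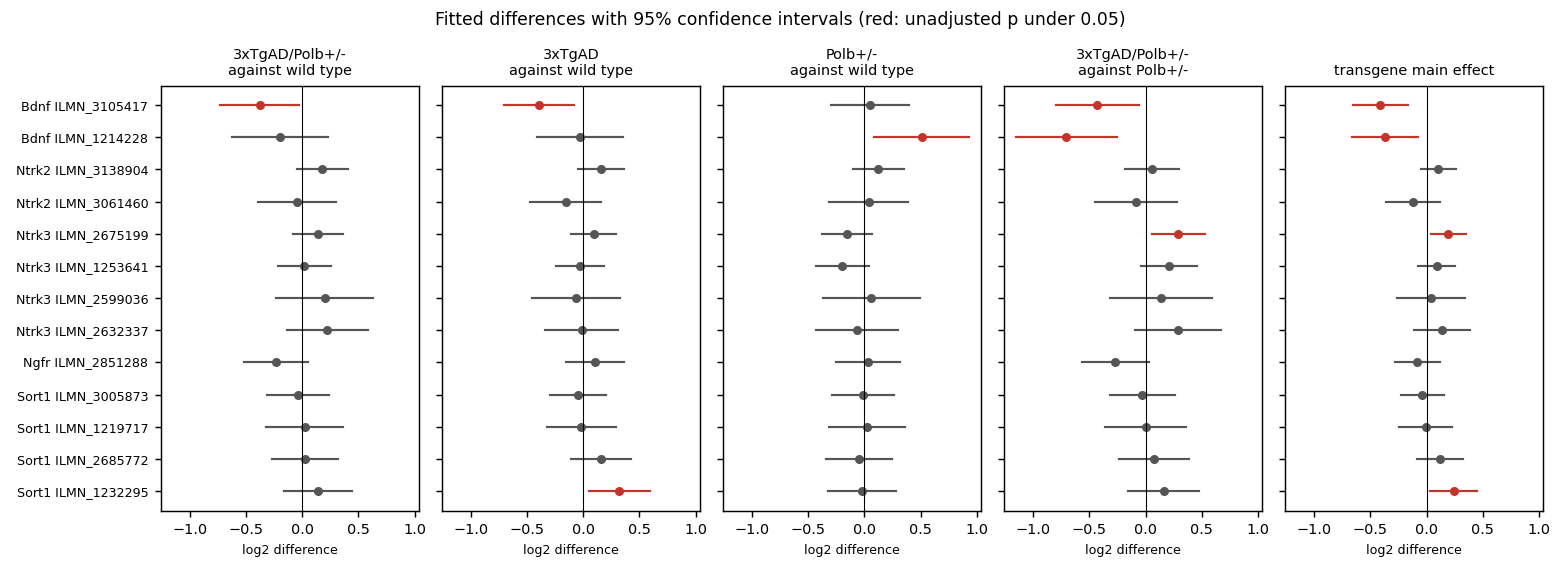
Fitted log2 differences of the 13 tested probes with 95% confidence intervals, in 4 panels with the first-named genotype minus the second and in a last panel for the Alzheimer alleles averaged over both Polb backgrounds (transgene main effect). Red marks an unadjusted limma p under 0.05 and no probe passed the adjusted threshold; the interval of Bdnf ILMN_3105417 at the far right runs from -0.65 to -0.17.

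The spelling of the age went with the level of many probes across the array, and some receptor probes were among them. With genotype in the fit, 5 of the 13 probes differed between "20- month" and "20 month" arrays at an adjusted p under 0.05, against 31.9% of all tested probes, and all 5 were higher in "20- month", against 17% of all. Ntrk3 ILMN_2599036 was higher by 0.55 ± 0.08 (limma adjusted p = 6.11e-05) and Ntrk3 ILMN_2632337 by 0.41 ± 0.08 (adjusted p = 0.00103), both of the transcript without the kinase. Sort1 ILMN_1219717 was higher by 0.42 ± 0.06 (adjusted p = 0.000155), at 13.09 to 13.48 in "20- month" arrays and 12.65 to 12.96 in "20 month" arrays. Sort1 ILMN_3005873 was higher by 0.32 ± 0.06 (adjusted p = 0.000358), at 13.58 to 13.83 and 13.26 to 13.45 in the same order. Ntrk2 ILMN_3061460 was higher by 0.30 ± 0.10 (adjusted p = 0.0215). The dim Sort1 probes, assigned to the same transcript as the bright ones, did not pass. ILMN_2685772 differed by 0.09 ± 0.10 (limma adjusted p = 0.496) and ILMN_1232295 by -0.04 ± 0.10 (adjusted p = 0.769). The remaining probe of Ntrk2 and both of the Ntrk3 kinase transcript had differences of -0.15, -0.14 and -0.09 and did not pass. Bdnf differed by -0.01 ± 0.12 and 0.06 ± 0.14, and Ngfr by -0.11 ± 0.09. With the spelling as a block, 0 of the 13 probes passed in any genotype comparison, where the share of all probes that passed was 0.0669% in 3xTgAD against wild type and, at the highest, 1.12% for the averaged Alzheimer alleles (0.663% lower). In that fit the averaged effect of the Alzheimer alleles on Bdnf ILMN_3105417 was -0.41 ± 0.12 (limma adjusted p = 0.0732).

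**Figure D5:**
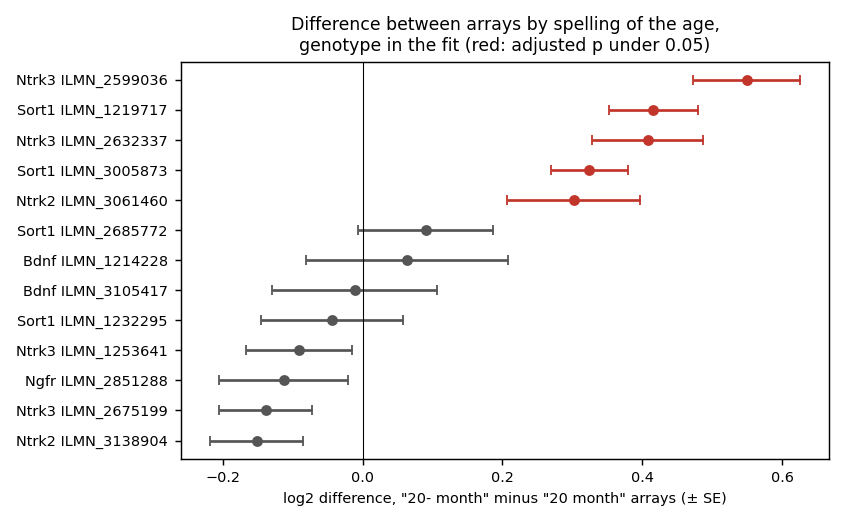
Log2 difference of each of the 13 tested probes between the 11 "20- month" and the 8 "20 month" arrays, the first minus the second, with genotype in the fit and bars for the SE. Red marks the 5 probes with an adjusted limma p under 0.05, which run from 0.30 to 0.55, and the 2 Bdnf probes lie at -0.01 and 0.06.

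The wider neurotrophin pathway was read from 6 lists, 102 genes of which were tested. By limma 0 of the 102 passed the adjusted threshold in any of the 8 comparisons. With the averaged Alzheimer alleles, 20 of the 102 had unadjusted p under 0.05, 11 higher and 9 lower, against 15.4% of all tested probes, and 54.2% of all tested probes were on the higher side. Genes known to respond to activity or BDNF were 19 lower and 4 higher of 23, with a median of -0.17, where the median over all tested probes was 0.02. Of these 23, 4 lower and 2 higher had unadjusted p under 0.05. Genes of Trk signalling were 19 higher and 9 lower of 28, with a median of 0.08. Of these 28, 5 were under 0.05, all higher, where 7.04% of all probes were under 0.05 and higher and 8.38% under 0.05 and lower. Regulators of Bdnf transcription were 9 higher and 9 lower of 18 with a median of 0.00. Partners of p75 were 13 higher and 7 lower of 20 with a median of 0.05, and genes of proneurotrophin cleavage and sorting 7 higher and 2 lower of 9 with a median of 0.07. Of the other receptors and relatives, 4 were tested and were 2 higher and 2 lower.

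The single gene with the smallest p of these lists differed by comparison. Camk4, a calcium-dependent kinase that acts on CREB, was at 5.09 ± 0.22 in 3xTgAD/Polb+/-, 5.34 ± 0.14 in 3xTgAD, 5.56 ± 0.05 in Polb+/- and 5.49 ± 0.11 in wild type (SD). Its averaged effect of the Alzheimer alleles was -0.31 ± 0.08 (limma adjusted p = 0.0747), and its difference of 3xTgAD/Polb+/- from Polb+/- was -0.47 ± 0.12 (adjusted p = 0.121). The mean of 5.09 lies near 5.06, at which Bdnf ILMN_1214228 was undetected on 3xTgAD/Polb+/- replicate 1, so background may limit these Camk4 differences. Arc, an activity-induced synaptic gene, was at 9.66 ± 0.56, 10.51 ± 0.30, 10.21 ± 0.52 and 10.62 ± 0.34 in the same order. For Arc, 3xTgAD/Polb+/- minus 3xTgAD gave -0.86 ± 0.25 (limma adjusted p = 0.415), and its averaged effect of Polb heterozygosity was -0.64 ± 0.18 (adjusted p = 0.412). Mmp9, a protease that can cleave proBDNF, had 0.50 ± 0.13 for 3xTgAD/Polb+/- against wild type (limma adjusted p = 0.154), and Sh2b2, an adaptor of receptor tyrosine kinases, 0.34 ± 0.12 for 3xTgAD against wild type (adjusted p = 0.680). The wild type mean of Sh2b2 was 5.29, and Ntrk3 ILMN_2632337 was undetected at 5.42 on 3xTgAD replicate 2. Background may thus limit this Sh2b2 difference too. Tac1, which encodes the precursor of substance P and is also 1 of the striatal markers, had 1.47 ± 0.52 for Polb+/- against wild type (limma adjusted p = 1.0). Bhlhe40, a transcriptional repressor, had 0.52 ± 0.20 for the interaction (adjusted p = 1.0).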

How the data were processed

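Per the labels, total RNA of prefrontal cortex was labelled with biotin and hybridised to 19 Illumina arrays. The deposited table holds an intensity for each of 25697 probes and each array, at or above 30.4, with a detection p-value beside each intensity, per the file headers. GenomeStudio 1.9.0 is named in the submitters' processing notes, and further steps are not given in the sources used here. A second deposited table holds a score for each probe, which was recomputed as the z score of the log10 intensity within the array to within 5e-10.

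The function neqc (limma 3.58.1, R 4.3.3, offset 16) subtracted background estimated through the detection p-values, quantile-normalised the arrays and took log2. Probes with detection p under 0.05 on at least 4 arrays were tested. All 19 arrays entered 1 limma fit with 4 genotype means (residual degrees of freedom 15, prior 4.642), two-sided, with Benjamini-Hochberg adjustment over the 14942 probes of each of 8 comparisons. The number of arrays limits the precision. The averaged effects are means of both differences between genotypes with and without the alleles, and the interaction is their difference. Named differences are those with unadjusted p under 0.05, or the smallest p. Named list genes are those that passed, or the gene with the smallest p.

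Symbols and transcripts came from the platform annotation, and promoter sequences from RefSeq (GRCm38.p6, read with Python 3.11.15). The genes and lists were chosen with earlier results of these data known. The fit was checked on simulated data. Alternatives tried were the normalisation, the deposited score, 3 probe filters, 1 probe per gene, the spelling, the striatal covariate, array weights, a replicate block and left-out arrays. Same-numbered arrays of different genotypes had a mean r of -0.0547 over 25 pairs, and other pairs 0.0145, after genotype means were removed. The spelling was left in these values, so they cannot decide whether the numbers pair the arrays. Columns of 3xTgAD replicates 2 and 5 carry 1 code, and their residuals after genotype and spelling had r = 0.109 over probes, against -0.395 to -0.0747 for the other 14 pairs of 3xTgAD arrays. Whether they come from 1 mouse is not stated, so the 6 arrays may hold 5 mice; both were kept, and averaging them changed no call.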

Additional observations from a re-analysis of the deposited data

Results flagged for a closer look

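Of 52 groups of 4 to 6 arrays, 6 held an array far from the others by Dixon's criterion, and chance gives about 1 in 20. Bdnf ILMN_3105417 was at 8.26 on 3xTgAD/Polb+/- replicate 1, where the other 3 lay between 8.87 and 8.98. On the only "20 month" array of Polb+/- (replicate 4), Ntrk3 ILMN_2599036 was at 7.16, Ntrk3 ILMN_2632337 at 4.98 and Sort1 ILMN_3005873 at 13.30, below the 3 "20- month" arrays each time. Ntrk3 ILMN_2632337 was at 5.01 on 3xTgAD replicate 1, undetected there, and Ngfr ILMN_2851288 at 5.66 on Polb+/- replicate 3.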

How the results depend on the processing

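No probe of these genes passed in the 8 comparisons as reported, and the count stayed at 0 under every alternative except 2. Within the "20- month" arrays alone it was 3 for 3xTgAD/Polb+/- against wild type, 2 against Polb+/- and 3 for the averaged Alzheimer alleles, where 13.3%, 10.6% and 8.51% of all probes passed. With array weights it was 2, 3 and 4, where 9.26%, 8.57% and 11.7% passed; 3xTgAD/Polb+/- replicate 1 then had a weight of 2.90 and the other 3 of its group 0.248 to 0.421. These calls were Bdnf, lower, and Ntrk3 ILMN_2675199 and Sort1 ILMN_1232295, higher. Of the named differences, 1 changed direction: Bdnf ILMN_3105417 in 3xTgAD/Polb+/- against wild type, at 0.014 within "20 month". Leaving out 1 array at a time changed no call, and that difference ranged from -0.48 to -0.21, the second of these without 3xTgAD/Polb+/- replicate 1. The averaged effect of the Alzheimer alleles on Bdnf ILMN_3105417 was -0.46 to -0.33 with 1 array left out (adjusted p 0.0547 to 0.207), and on ILMN_1214228 -0.45 to -0.29. With a replicate block 0 of the 13 probes passed, and these 2 effects were -0.42 (adjusted p = 0.0540) and -0.38 (adjusted p = 0.0809). Signal near background limits Bdnf ILMN_1214228, Ntrk3 ILMN_2632337 and Ngfr, and may limit Camk4 and Sh2b2 among the pathway genes. The causes were not tested.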
